A study of Mus musculus with 12 samples.

Results

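The serum amyloid A family of the mouse liver was followed through 2 models of cholestasis, in which bile flow out of the liver is impaired. Its members are Saa1, Saa2, Saa3 and Saa4, chosen by gene symbol with values of these libraries known, and all 4 of them were found among the 16970 genes of the table. The members' levels and differences are therefore given as a description, without tests. Liver RNA was sequenced in 12 libraries, 3 in each of 4 groups. MDR_H is taken as the Abcb4-/- group, 60 days old at the start, that received the bile acid hyodeoxycholic acid (HDCA) at 100 mg/kg over 21 days. MDR is taken as the Abcb4-/- group without HDCA, also 60 days old at the start. BDL_H had its bile ducts ligated for 7 days and received HDCA at 100 mg/kg in the last 4 days, after 3 days without it. BDL had the same ligation of 7 days without HDCA. Abcb4-/- mice lack the canalicular phospholipid transporter. The strain, the sex, the age of the ligated mice and what the untreated groups were given are not stated in the sources used here. Healthy livers, unoperated or wild-type, were not analysed here.

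Serum amyloid A proteins are small apolipoproteins that travel on high-density lipoprotein (HDL). In mice, Saa1 and Saa2 are the main acute phase forms, made by hepatocytes under interleukin-6, interleukin-1 and tumour necrosis factor through STAT3, C/EBP and NF-kB factors. Saa3 is an inducible form also made by macrophages and adipocytes in mice, and Saa4 is known as the constitutive form.

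No library label names Abcb4, and the gene itself did not mark the groups. Abcb4 was listed at 165.3, 154.5 and 129.1 FPKM (reads scaled by gene model length and by library depth) in MDR_H libraries and at 181.3, 150.1 and 161.8 FPKM in MDR libraries. It was at 160.5, 72.1 and 178.4 FPKM in BDL_H libraries and at 52.8, 151.9 and 167.8 FPKM in BDL libraries. A gene-level value does not show whether an allele that is still transcribed is disrupted, so each statement on MDR or MDR_H is on the libraries labelled so. Ddx3y, a Y-linked gene, was at 9.35 to 10.9 FPKM in all BDL and BDL_H libraries and at 10.5 FPKM in MDR replicate 1, and at 0 to 0.00523 FPKM in the other 5 libraries labelled MDR or MDR_H. Reads recovered from the FPKM came to 34260782 to 40427855 a library. BDL replicate 1 and BDL_H replicate 2 stood apart from the rest of their model in the level of the middle gene: the median log2(FPKM + 1) of the genes tested was 2.49 and 2.56 in them and 2.81 to 2.88 in the other ligated livers. For the members, differences between groups, likeness within groups and the spread of BDL_H are given with and without them. In whole liver, fewer cells of a type and less RNA per cell cannot be told apart.

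The 4 genes form a cluster on mouse chromosome 7 (GRCm38), which spans 42316 bases. Saa3 lies at 46711998 to 46715700, Saa4 at 46727998 to 46732603 and Saa1 at 46740497 to 46742980, all on the minus strand. Saa2 lies at 46751790 to 46754313 on the plus strand, so Saa1 and Saa2 are read away from each other, from RefSeq start sites 8853 bases apart. All 4 are annotated as protein-coding. Their coding sequences, taken as the longest open reading frame of the GENCODE transcript, were 95.1% identical between Saa1 and Saa2 (351 of 369 positions). Saa1 was 75.9% identical to Saa3 and 65.2% identical to Saa4. Of the 50-base windows of the Saa1 transcript, 14.8% also occurred in another Saa transcript without a mismatch, against 4.67% of the 75-base windows and 0% of the 100-base windows. The sources used here give neither the read length nor the treatment of reads with several matches, so the split of reads between Saa1 and Saa2 is uncertain while their sum is less so.

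The stretches just upstream of the 4 genes are shown because Saa1 and Saa2 varied together more closely than any other pair of members. Their Pearson's r of log2(FPKM + 1) was 0.995 over the 12 libraries. This r holds the gap between the models, and reads of one gene can be put on the other. Whether the stretches bear on these levels was not tested. Each is the 250 bases before the RefSeq start site (GRCm38.p6), read 5′ to 3′ on the gene's own strand. For Saa2 and Saa3 the RefSeq start lies a little inside the GENCODE gene, so the end of the stretch overlaps that annotation. Capitals mark matches to the C/EBP-like motif TTGCNNAA on either strand.
Saa1, chr7:46742981-46743230, minus strand: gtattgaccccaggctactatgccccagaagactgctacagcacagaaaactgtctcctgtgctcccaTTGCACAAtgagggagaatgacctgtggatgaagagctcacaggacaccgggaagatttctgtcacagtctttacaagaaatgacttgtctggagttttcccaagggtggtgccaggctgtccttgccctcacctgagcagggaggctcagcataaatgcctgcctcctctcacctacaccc
Saa2, chr7:46751583-46751832, plus strand: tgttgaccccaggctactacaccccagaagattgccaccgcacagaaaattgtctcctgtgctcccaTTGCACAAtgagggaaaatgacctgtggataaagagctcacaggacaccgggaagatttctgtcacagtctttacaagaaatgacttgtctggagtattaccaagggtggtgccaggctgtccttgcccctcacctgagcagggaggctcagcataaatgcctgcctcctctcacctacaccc
Saa3, chr7:46715677-46715926, minus strand: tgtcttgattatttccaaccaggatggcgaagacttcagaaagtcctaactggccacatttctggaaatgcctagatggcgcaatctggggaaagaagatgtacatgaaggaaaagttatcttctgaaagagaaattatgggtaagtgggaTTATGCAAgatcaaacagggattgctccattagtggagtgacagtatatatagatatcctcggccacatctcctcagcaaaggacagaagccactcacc
Saa4, chr7:46732604-46732853, minus strand: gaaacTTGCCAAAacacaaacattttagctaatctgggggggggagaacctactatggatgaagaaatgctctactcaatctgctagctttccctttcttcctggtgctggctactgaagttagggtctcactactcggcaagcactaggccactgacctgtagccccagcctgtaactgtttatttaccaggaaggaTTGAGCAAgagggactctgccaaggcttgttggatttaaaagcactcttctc

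The Saa1 and Saa2 stretches aligned with 238 identical bases, 11 different bases and 2 gaps, an identity of 94.8%. The other pairs ranged from 42.6% to 48.9%. The C/EBP-like motif stood 182 bases before the Saa1 start site and 183 bases before the Saa2 start site, both as TTGCACAA. Saa3 held 1 match, on the opposite strand, from 99 bases before its start site. Saa4 held 2 matches, from 245 and 52 bases before its start site. Across 32851 RefSeq promoters of the same length, 9.56% held this motif. The other motifs searched on both strands, GGGACTTTC (NF-kB-like, 0.289% of promoters), TTCNNNGAA (STAT-like, 7.02%) and the TATA box TATAAA (12.4%), had no match in these 4 windows, which says only that these letters are absent there. No motif overlapped another in them.

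Saa1 and Saa2 were among the most abundant transcripts of the ligated livers and far lower in the libraries labelled MDR. Saa1 was at 151.7, 95.1 and 79.8 FPKM in MDR_H libraries and at 177.3, 120.1 and 148.3 FPKM in MDR libraries. It was at 363.3, 4833 and 2809 FPKM in BDL_H libraries and at 2292, 964.4 and 1146 FPKM in BDL libraries. The lowest Saa1 value of the ligated livers, in BDL_H replicate 1, was still above the highest value of the libraries labelled MDR or MDR_H. By group mean the order from high to low was BDL_H, BDL, MDR and MDR_H; BDL_H and BDL overlapped, as did MDR and MDR_H.

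Saa2 was at 138.8, 107.2 and 86.8 FPKM in MDR_H libraries and at 190.5, 118.1 and 152.3 FPKM in MDR libraries. It was at 287.9, 7733 and 3633 FPKM in BDL_H libraries and at 2824, 1100 and 996.2 FPKM in BDL libraries. The order of the groups and their overlaps were those of Saa1. Among all genes of the table Saa2 ranked 742 by FPKM in MDR_H replicate 3, its lowest rank, and 8 in BDL_H replicate 2, its highest.

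Saa3 was the lowest member in every library. It was at 8.07, 3.48 and 5.20 FPKM in MDR_H libraries and at 6.06, 5.03 and 4.65 FPKM in MDR libraries. It was at 20.9, 39.8 and 161.1 FPKM in BDL_H libraries and at 15.1, 42.4 and 49.5 FPKM in BDL libraries. All 6 ligated livers lay above the other 6 libraries, and the highest value, in BDL_H replicate 3, was not in the library with the highest Saa1.

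Saa4 differed least. It was at 68.4, 61.5 and 63.3 FPKM in MDR_H libraries and at 108.6, 60.1 and 70.8 FPKM in MDR libraries. It was at 98.4, 426.0 and 181.6 FPKM in BDL_H libraries and at 182.1, 173.8 and 141.8 FPKM in BDL libraries. BDL_H replicate 1 lay below MDR replicate 1 here, so the ligated livers as a whole overlapped the others, although neither MDR and BDL nor MDR_H and BDL_H did.

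**Figure D1:**
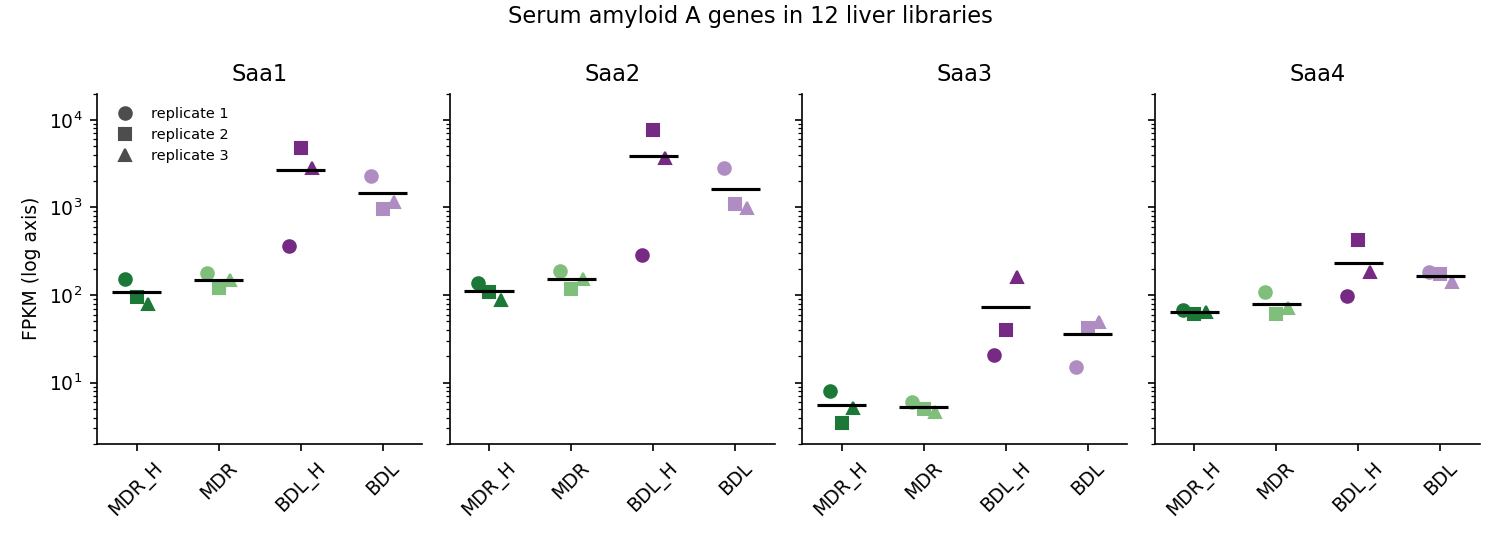
FPKM on a log axis of Saa1, Saa2, Saa3 and Saa4 in each library by group; symbols give the replicate number and bars the group mean of 3 libraries. For Saa1, BDL_H runs from 363.3 to 4833 FPKM and MDR_H from 79.8 to 151.7 FPKM, and for Saa3 all ligated livers lie above the other libraries.

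Together the 4 genes took 0.0389, 0.0295 and 0.0271% of recovered reads in MDR_H libraries and 0.0531, 0.0325 and 0.0397% in MDR libraries. They took 0.0768, 1.06 and 0.558% in BDL_H libraries and 0.448, 0.205 and 0.211% in BDL libraries. The family's share in BDL_H replicate 2 was thus the highest of the 12 libraries, and the share in BDL_H replicate 1 the lowest of the ligated livers.

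The comparison of the models asked where the family stood in one cholestatic liver against the other. On the scale of log2(FPKM + 1), the fit across all genes gave a difference (MDR minus BDL) of -3.21 ± 0.74 for Saa1, -3.26 ± 0.92 for Saa2, -2.40 ± 0.63 for Saa3 and -1.08 ± 0.41 for Saa4 (SE, 3 libraries a group). The mean level of Saa1 was 148.6 ± 28.6 FPKM in MDR libraries and 1468 ± 720 FPKM in BDL libraries (SD, n = 3 each). Saa4 averaged 79.9 ± 25.5 FPKM in MDR libraries and 165.9 ± 21.3 FPKM in BDL libraries. All 3 MDR libraries lay below all 3 BDL libraries for 4 of 4 members, as they did for 3.12% of all 10805 genes tested; since the members were chosen with this difference known, nothing is read from that count. Without BDL replicate 1 and BDL_H replicate 2 the differences were -2.83 ± 0.66, -2.79 ± 0.78, -2.91 ± 0.64 and -1.01 ± 0.28 for Saa1 to Saa4 in numerical order.

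With HDCA in both models, the difference (MDR_H minus BDL_H) was -4.01 ± 0.74 for Saa1, -4.19 ± 0.92 for Saa2, -3.06 ± 0.63 for Saa3 and -1.60 ± 0.41 for Saa4. Saa2 averaged 111.0 ± 26.2 FPKM in MDR_H libraries and 3885 ± 3729 FPKM in BDL_H libraries (SD, n = 3 each). The MDR_H libraries lay below the BDL_H libraries for 4 of 4 members and for 4.55% of the genes tested. Without BDL_H replicate 1 the difference was -5.12 ± 0.40 for Saa1 and -5.59 ± 0.46 for Saa2. Without the libraries that stood apart, BDL replicate 1 and BDL_H replicate 2, it was -3.26 ± 0.66 for Saa1 and -3.22 ± 0.78 for Saa2. For Saa3 it was then -3.24 ± 0.64 and for Saa4 -1.04 ± 0.28. The models also differ in operation and length of treatment, which cannot be told apart from the model. The age of the ligated mice is not stated, so any difference in age is not known. The Y-linked gene Ddx3y was read in all ligated livers and, of the libraries labelled MDR or MDR_H, at that level in MDR replicate 1 alone. Without that library the difference (MDR minus BDL) was -3.34 ± 0.86 for Saa1, -3.43 ± 1.07 for Saa2, -2.49 ± 0.73 for Saa3 and -1.32 ± 0.45 for Saa4. With it left out, and in MDR_H minus BDL_H, Y-linked reads at that level fell in the ligated livers alone. Sex and model therefore cannot be told apart there, and the part of sex in these differences was not tested. The same limit holds for all other genes, gene lists and markers compared between the models below. For them, too, MDR_H minus BDL_H cannot tell sex from model, and in MDR minus BDL only MDR replicate 1 parts the 2.

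The comparison with HDCA asked whether the bile acid moved the family within each model. In the ligated livers the difference (BDL_H minus BDL) was 0.32 ± 0.74 for Saa1, 0.46 ± 0.92 for Saa2, 0.68 ± 0.63 for Saa3 and 0.25 ± 0.41 for Saa4, each near or below its standard error. The 2 groups overlapped for all 4 members, against 5.03% of genes tested without overlap. A single library decided the sign: the Saa1 difference was 1.43 ± 0.40 without BDL_H replicate 1 and -0.43 ± 0.69 without BDL_H replicate 2. For Saa2 these values were 1.86 ± 0.46 and -0.51 ± 0.83, and for Saa4 0.75 ± 0.33 and -0.30 ± 0.28. Without BDL_H replicate 3 the difference was -0.04 ± 0.83 for Saa1 and -0.13 ± 0.46 for Saa3. Without both BDL replicate 1 and BDL_H replicate 2 it was -0.06 ± 0.72 for Saa1, -0.03 ± 0.86 for Saa2, 0.35 ± 0.70 for Saa3 and -0.23 ± 0.30 for Saa4.

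In the libraries labelled MDR the difference (MDR_H minus MDR) was -0.48 ± 0.74 for Saa1, -0.47 ± 0.92 for Saa2, 0.02 ± 0.63 for Saa3 and -0.26 ± 0.41 for Saa4. The groups overlapped for all 4 members, against 5.95% of genes tested without overlap. By replicate number, MDR_H was lower than MDR in 3 of 3 pairs for Saa1 and Saa2, in 1 of 3 for Saa3 and in 2 of 3 for Saa4. No label pairs these libraries: the pairs were taken from the values alone, so nothing on HDCA is read from these counts. Replicate 1 joins MDR with Ddx3y at 10.5 FPKM to MDR_H with Ddx3y at 0. The standard errors of the differences borrow the wide spread of the ligated livers. Fitted on the 6 MDR and MDR_H libraries alone, the Saa1 difference of -0.48 had an SE of 0.24 and the Saa2 difference of -0.47 an SE of 0.22. MDR replicate 1, the library with Y-linked reads, was the highest of the 3 for Saa1, Saa2, Saa3 and Saa4, and without it the difference was -0.34 ± 0.86 for Saa1, -0.30 ± 1.07 for Saa2, 0.11 ± 0.73 for Saa3 and -0.02 ± 0.45 for Saa4. Across all genes, 0% passed an adjusted p of 0.05 (limma, Benjamini-Hochberg) in either HDCA comparison. At an unadjusted p under 0.05 there were 61 genes in MDR_H minus MDR and 243 in BDL_H minus BDL, and limma-voom on recovered reads also called 0.

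**Figure D2:**
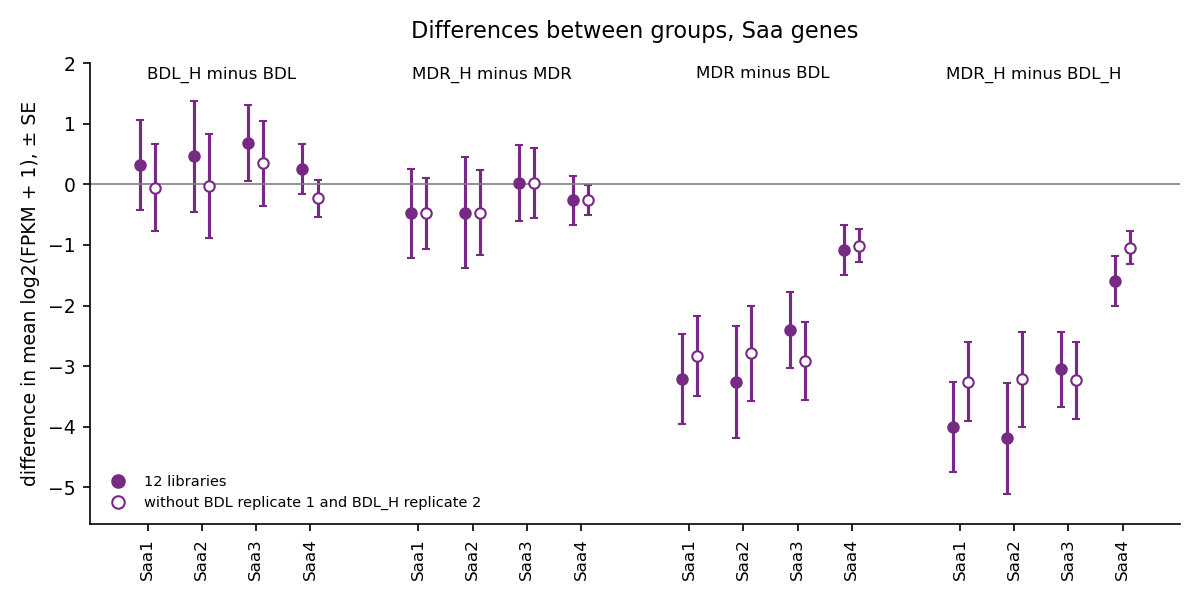
Difference in mean log2(FPKM + 1) with its SE for each Saa gene in 4 comparisons, from all 12 libraries (filled) and without BDL replicate 1 and BDL_H replicate 2 (open). The Saa1 value is 0.32 ± 0.74 in BDL_H minus BDL and -3.21 ± 0.74 in MDR minus BDL.

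What set BDL_H off was its spread. The SD of log2(FPKM + 1) over its 3 libraries was 1.97 for Saa1, 2.48 for Saa2, 1.48 for Saa3 and 1.06 for Saa4, where the median gene tested had 0.204. No other gene tested had an SD in BDL_H as large as that of Saa2, and 5 genes, Saa1 included, had one at least that of Saa1. These ranks include BDL_H replicate 2. Since the members were chosen with these values known, nothing is read from the ranks. The highest BDL_H library exceeded the lowest 13.3-fold for Saa1, 26.9-fold for Saa2, 7.71-fold for Saa3 and 4.33-fold for Saa4. Between the 2 libraries left without BDL_H replicate 2, which stood apart, the ratio was 7.73 for Saa1, 12.6 for Saa2, 7.71 for Saa3 and 1.85 for Saa4. In BDL the same ratio was 2.38 for Saa1 and 1.28 for Saa4. In MDR_H it was 1.90 for Saa1 and 1.11 for Saa4, and in MDR it was 1.48 for Saa1 and 1.81 for Saa4.

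Within groups, Saa1 and Saa2 varied together, and how closely Saa3 followed them rested on the libraries that stood apart. The deviations of the 12 libraries from their group means correlated at 0.991 between Saa1 and Saa2, at 0.846 between Saa1 and Saa4 and at 0.351 between Saa1 and Saa3 (Pearson's r, a description over 12 libraries that share groups and library effects). Without BDL replicate 1 and BDL_H replicate 2, a setting added after seeing the data, these values were 0.984, 0.769 and 0.964 over 10 libraries. The value of 0.964 rested largely on BDL_H replicates 1 and 3, the only BDL_H libraries left. They differed 7.73-fold for Saa1 and 7.71-fold for Saa3. Between Saa3 and Saa4 r was 0.146 over all 12 libraries and 0.727 over the 10. The near-identity of Saa1 and Saa2 can put reads of one on the other, which bears on the first of these values.

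The ratio of Saa2 to Saa1 stayed close to 1 on the FPKM scale, at 0.915 to 1.13 in MDR_H, 0.984 to 1.07 in MDR, 0.792 to 1.60 in BDL_H and 0.869 to 1.23 in BDL libraries. Saa2 was above Saa1 in 8 of 12 libraries by FPKM and in 0 of 12 by recovered reads. That gap comes from the lengths behind the FPKM. One read was worth an FPKM that fits a gene model of 1031 bases for Saa1 and 610 bases for Saa2, a ratio of 1.69, while the GENCODE transcripts compared here have 609 and 606 bases. Which member is the more abundant therefore depends on the length used, whereas differences between libraries within a gene do not.

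The ratio of Saa1 to Saa4, the acute phase form over the constitutive one, was 1.26 to 2.22 in MDR_H, 1.63 to 2.09 in MDR, 3.69 to 15.5 in BDL_H and 5.55 to 12.6 in BDL libraries. Every ligated liver thus had a higher ratio than every library labelled MDR or MDR_H. The ratio of Saa1 to Saa3 did not follow the models. It was 121.4 in BDL_H replicate 2 and 151.5 in BDL replicate 1, the libraries that stood apart, and 15.3 to 31.9 in the other 10.

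**Figure D3:**
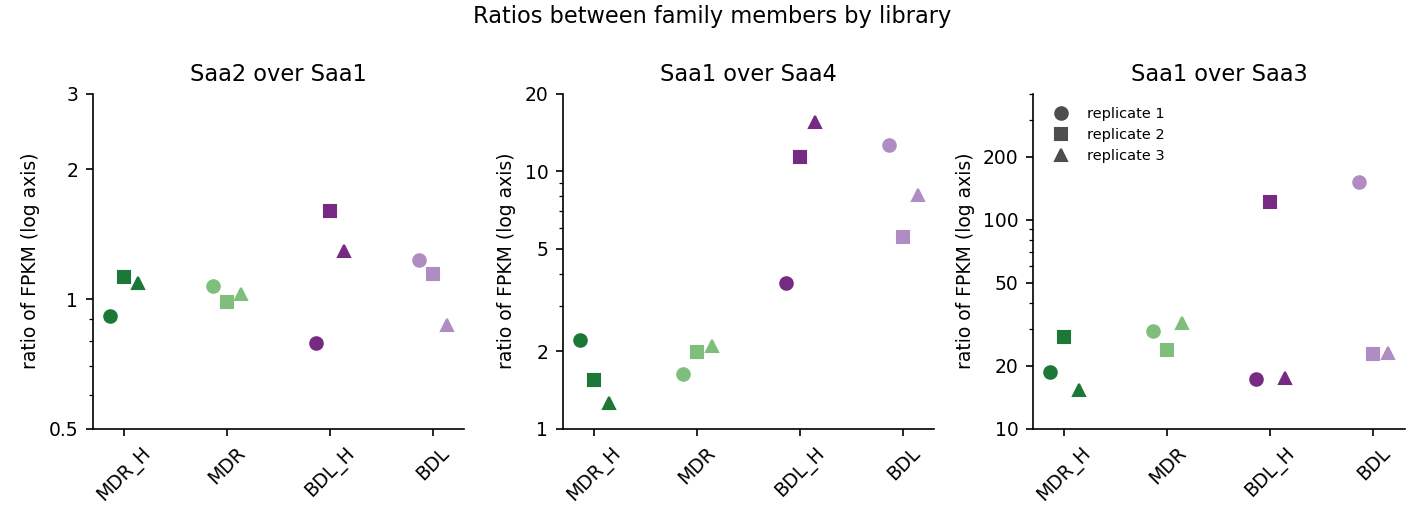
Ratios of FPKM between family members on log axes, by library and group, with symbols for the replicate number. Saa1 over Saa4 is at most 2.22 in MDR_H and MDR and at least 3.69 in BDL_H and BDL, and Saa1 over Saa3 is 121.4 in BDL_H replicate 2, 151.5 in BDL replicate 1 and at most 31.9 elsewhere.

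Markers of resident and recruited macrophages were low in these same libraries, and so were those of several other non-hepatocyte cell types. The summed FPKM of 10 Kupffer cell markers was 310.7 in BDL_H replicate 2, against 547.3 and 710.8 in the other BDL_H libraries, and 276.0 in BDL replicate 1, against 587.6 and 612.1 in the other BDL libraries. That of 11 monocyte and recruited macrophage markers was 225.7 in BDL_H replicate 2 and 244.2 in BDL replicate 1, and 492.9 to 850.2 in the other ligated livers. The cholangiocyte marker sum was 138.2 and 127.9 in these libraries, and 248.8 to 415.2 in the other ligated livers. Stellate cell and endothelial sums were also lowest of their group in each of them. The neutrophil and adipocyte sums were not low in BDL_H replicate 2, at 82.5 and 24.8. Across groups the order was another one: the recruited macrophage sum was 923.3 to 1243 in MDR_H and 788.6 to 1670 in MDR libraries, where Saa3 was lowest. No marker of these lists was at 0 in all libraries. Of the adipocyte markers, Adipoq was at 0.0401 FPKM or less in every library, and the sum of the 6 listed in the table ran from 5.50 to 24.8 FPKM. Of the neutrophil markers, Ly6g was at 0 in all libraries but BDL_H replicate 2, and the sum of 13 was 32.0 to 45.4 in MDR_H, 17.9 to 62.3 in MDR, 32.8 to 102.7 in BDL_H and 37.5 to 76.3 in BDL. The part of these cells in the Saa values was not tested.

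The genes whose levels were most like those of Saa1 over the 12 libraries were Orm1 (r = 0.984), Hp (0.961), Lrg1 (0.955), Aifm2 (0.955) and Lcn2 (0.944). Orm1 and Hp encode the acute phase proteins orosomucoid 1 and haptoglobin, and Lcn2 encodes lipocalin 2. For Saa2 they were Orm1 (0.975), Hp (0.965), Aifm2 (0.958), Lrg1 (0.954) and Il1r1 (0.943). For Saa3 they were Ambp (0.950), Hpx, the haem binder hemopexin (0.948), Ctps (0.940), Eppk1 (0.937) and Nfe2 (0.928). For Saa4 they were Lrg1 (0.969), Gnat1 (0.942), Il1r1 (0.937), Cldn14 (0.932) and Hp (0.929). Over libraries of both models, such a correlation holds the gap between the models together with the spread within groups.

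With the group means taken out, Orm1 remained the gene most like Saa1 (0.974) and Saa2 (0.969), followed for both by Camk2b (0.961 and 0.933) and P2ry2 (0.912 and 0.919). Orm1 was at 1889, 3993 and 3534 FPKM in BDL_H libraries and at 4179, 2741 and 2934 FPKM in BDL libraries, so the library low in Saa1 was low in Orm1 as well. For Saa4 it was Lrg1 (0.962), then Oplah (0.932) and Gnat1 (0.907). For Saa3 it was Smn1 (0.930), Zyg11b (0.911) and Marco (0.892). Marco, a scavenger receptor of macrophages, was at 19.3, 14.4 and 109.5 FPKM in BDL_H libraries and at 13.5, 38.8 and 34.3 FPKM in BDL libraries. Saa3 and Marco were both highest in BDL_H replicate 3 and both lowest of the BDL libraries in replicate 1. Elsewhere they parted: the lowest BDL_H library was replicate 1 for Saa3 and replicate 2 for Marco. The highest BDL library was replicate 3 for Saa3 and replicate 2 for Marco. Over the 10 libraries without those that stood apart, r within groups was 0.984 between Saa1 and Orm1, 0.975 between Saa2 and Orm1, 0.941 between Saa3 and Marco, 0.868 between Saa4 and Lrg1 and 0.680 between Saa4 and Gnat1. The values for Saa1, Saa2 and Saa3 rested largely on BDL_H replicates 1 and 3, the only BDL_H libraries left.

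Of 26 other positive acute phase genes, listed for their known rise in inflammation, 24 were lower in MDR than in BDL libraries. In that comparison 16 of 26 fell and 0 rose at an adjusted p under 0.05 (limma, Benjamini-Hochberg over 10805 genes), against 1.07% of all genes that fell and 15.1% that rose. The list's median difference was -1.17, where the median of all genes tested was 0.25. Orm2, an orosomucoid, fell by 2.62 on the log2 scale (SE 0.42, adjusted p = 0.00417), to 60.0, 162.0 and 133.5 FPKM in MDR libraries, against 760.6, 498.2 and 823.0 FPKM in BDL libraries. Apcs, the serum amyloid P component, fell by 2.26 (SE 0.42, adjusted p = 0.00731) and the hepatokine gene Fgl1 by 2.16 (SE 0.38, adjusted p = 0.00595). Mt2, a metallothionein that binds zinc, fell by 4.05 (SE 0.74, adjusted p = 0.00676), to 27.5, 52.0 and 51.3 FPKM in MDR libraries, against 1521, 931.9 and 252.7 FPKM in BDL libraries. These 4 genes did not overlap between the groups and stayed called in 20 of 20 alternative settings. The count of 16 was 10 without BDL replicate 2, 8 without MDR replicate 2 and 9 without MDR replicate 3, and 21 without both libraries that stood apart.

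In MDR_H minus BDL_H, 11 of 26 fell and 0 rose, against 0.935% of all genes that fell and 7.36% that rose, with a list median of -0.99 and a median of all genes of 0.20. Lcn2 fell by 3.02 (SE 0.57, adjusted p = 0.0154), to 118.6, 180.3 and 155.7 FPKM in MDR_H libraries, against 426.8, 3313 and 1266 FPKM in BDL_H libraries. Orm2 fell by 2.15 (SE 0.42, adjusted p = 0.0174) and Lrg1 by 1.52 (SE 0.33, adjusted p = 0.0247). Orm1 fell to 1419, 1277 and 1221 FPKM in MDR_H libraries, against 1889, 3993 and 3534 FPKM in BDL_H libraries (adjusted p = 0.0248). This count rested on few libraries: it was 2 without BDL_H replicate 2, 3 without BDL_H replicate 3, 6 without MDR replicate 2 and 5 without MDR replicate 3. It was 0 without MDR_H replicate 1, 2 without MDR_H replicate 2 and 1 without MDR_H replicate 3, and 12 without both libraries that stood apart. Lcn2 lost its call without MDR_H replicate 1, and its adjusted p ranged from 0.00288 to 0.0572 over the alternatives. Orm2 lost it without BDL_H replicate 2 or MDR_H replicate 1 or 3 (adjusted p up to 0.0612), Lrg1 without any 1 MDR_H library (up to 0.0768), and Orm1 without BDL_H replicate 2 or 3 or any 1 MDR_H library (up to 0.0791). In the HDCA comparisons the median of the 26 was 0.09 in MDR_H minus MDR and -0.13 in BDL_H minus BDL, with 0 called in each.

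**Figure D4:**
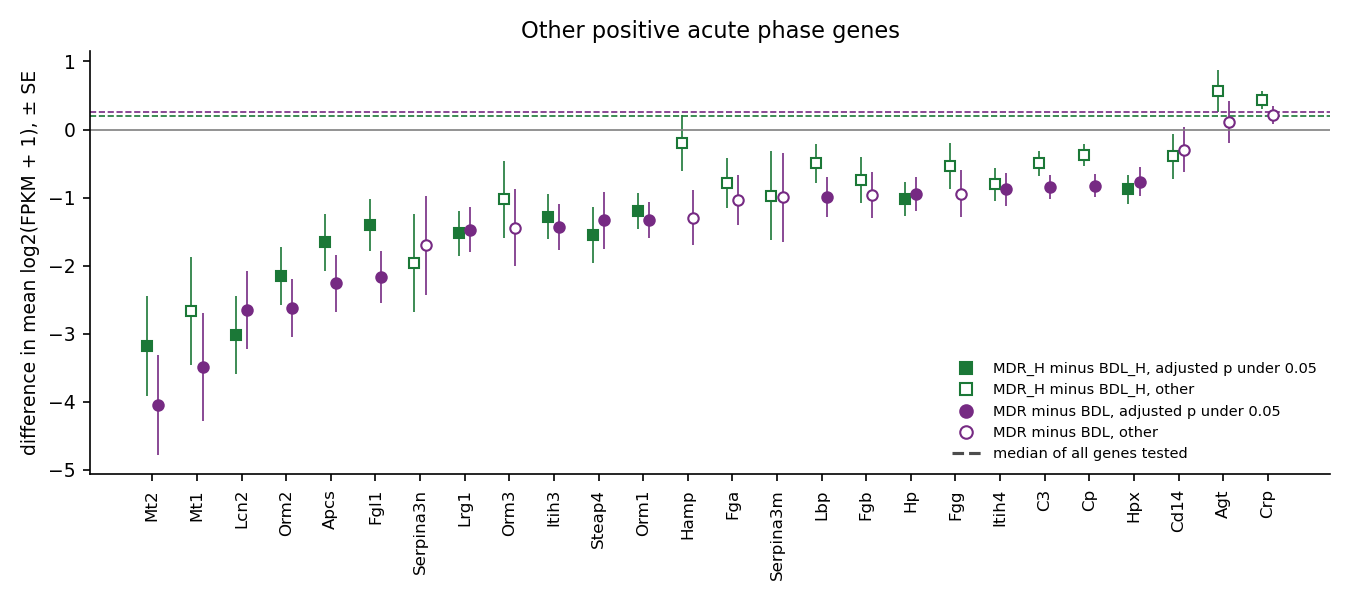
Difference in mean log2(FPKM + 1) with its SE for 26 other positive acute phase genes in MDR_H minus BDL_H (squares) and MDR minus BDL (circles); filled symbols have an adjusted p under 0.05 and dashed lines give the median of all genes tested. Mt2 (-3.18 and -4.05) is lowest in both and Crp lies above 0 in both.

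Of the cytokines and receptors known to induce the family, 0 of 13 tested rose and 1 fell in MDR minus BDL, against 15.1% and 1.07% of all genes. The one that fell was Il1r1, the interleukin-1 receptor, by 1.21 (SE 0.36, adjusted p = 0.0435), to 6.95, 7.27 and 6.16 FPKM in MDR libraries, against 20.3, 22.0 and 10.8 FPKM in BDL libraries. That call held in 8 of 20 alternatives, with adjusted p from 0.0135 to 0.120. Among the settings that ended it were the omission of BDL replicate 1 or 2 and that of any MDR library. With HDCA in both models, 1 of 13 rose and 1 fell in MDR_H minus BDL_H, against 7.36% and 0.935% of all genes. Lifr, the receptor of leukaemia inhibitory factor, rose by 1.27 (SE 0.23, adjusted p = 0.0131), a call lost without MDR_H replicate 2 (adjusted p = 0.0544), and Il1r1 fell by 1.49 (SE 0.36, adjusted p = 0.0328). The Il1r1 call held in 12 of 20 alternatives and ended without BDL_H replicate 2 or 3, without MDR replicate 3 or without any MDR_H library. Il6, which encodes the main hepatic inducer, was at 0.242 FPKM or less in every library and was not tested, like Osm, Lif and Il1r2.

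Of 24 signalling and transcription factor genes of the induction pathway, 2 rose and 3 fell in MDR minus BDL, against 15.1% and 1.07% of all genes. Cebpa, a C/EBP factor of resting hepatocytes, rose by 0.90 (SE 0.14, adjusted p = 0.00329) and Sp1 by 0.57 (SE 0.11, adjusted p = 0.0100). Socs3, the feedback inhibitor of STAT3 signalling, fell by 1.98 (SE 0.48, adjusted p = 0.0206), to 3.69, 5.72 and 3.56 FPKM in MDR libraries, against 20.7, 23.4 and 15.8 FPKM in BDL libraries. Cebpb, an inducible C/EBP factor, fell by 1.22 (SE 0.32, adjusted p = 0.0279), and Stat3 fell by 0.58 (SE 0.17, adjusted p = 0.0366). The calls of Cebpa and Sp1 ended under median-of-ratios scaling and that of Sp1 also after quantile normalization and without MDR replicate 2; over the 20 alternatives the adjusted p reached 0.0870 for Cebpa and 0.0620 for Sp1. The Socs3 call ended without BDL replicate 2 or any MDR library, with adjusted p of at most 0.0703, and the Cebpb call ended in 6 of 20 alternatives, among them the omission of BDL replicate 1 or 2 or MDR replicate 1 or 2. The Stat3 call held in 12 of 20 alternatives, with adjusted p from 0.0163 to 0.1403, and ended without BDL replicate 1 or 2, any MDR library or MDR_H replicate 2 or 3, and with only the 6 libraries compared. Between MDR_H and BDL_H, 1 rose and 1 fell, against 7.36% and 0.935% of all genes. Cebpa rose by 0.68 (SE 0.14, adjusted p = 0.0181) and Socs3 fell by 2.62 (SE 0.48, adjusted p = 0.0136), to 3.68, 7.23 and 2.95 FPKM in MDR_H libraries, against 16.5, 82.8 and 23.2 FPKM in BDL_H libraries. The Cebpa call ended without BDL_H replicate 1 or MDR_H replicate 1 or 2 and under median-of-ratios scaling (adjusted p up to 0.198), and the Socs3 call without MDR_H replicate 1 or 3.

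Of 6 tested receptors reported to bind serum amyloid A, 2 rose and 0 fell in MDR minus BDL, where 15.1% of all genes rose. Cd36, a scavenger receptor, rose by 1.16 (SE 0.24, adjusted p = 0.0118) and P2rx7, an ATP-gated channel, by 0.72 (SE 0.18, adjusted p = 0.0222). Quantile normalization ended both calls, and so did the omission of MDR replicate 2; that of P2rx7 also ended without BDL replicate 1 or 2 or MDR replicate 3. Cd36 also rose in MDR_H minus BDL_H, by 1.11 (SE 0.24, adjusted p = 0.0252). It was 1 of 6 there, where 7.36% of all genes rose. Its call held in 12 of 20 alternatives but ended when any 1 of the 6 libraries compared was left out. Fpr2, a formyl peptide receptor, was at 0.82 to 1.37 FPKM in MDR_H and 0.63 to 1.40 FPKM in MDR libraries, and at 0.42 to 2.38 FPKM in BDL_H and 0.62 to 1.31 FPKM in BDL libraries. Tlr4 and Ager were below the level tested.

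Of 14 genes of HDL proteins and HDL remodelling, 2 rose and 1 fell in MDR minus BDL, a share of risers near the 15.1% of all genes. Apoc1 rose by 0.68 (SE 0.18, adjusted p = 0.0300) and Apoc2 by 0.55 (SE 0.13, adjusted p = 0.0187), both lost under median-of-ratios scaling. Apoa1, the main HDL protein and one of 8 negative acute phase genes, fell by 0.73 (SE 0.20, adjusted p = 0.0306), to 7959, 6218 and 6425 FPKM in MDR libraries, against 14516, 10641 and 9442 FPKM in BDL libraries. Apoa1 stayed called in 12 of 20 alternatives, and the omission of BDL replicate 1 or 2, MDR replicate 2 or 3 or MDR_H replicate 3 ended its call. No other negative acute phase gene was called, so 1 of 8 fell, where 1.07% of all genes did. In MDR minus BDL, 6 of the 8 were lower, with a median difference of -0.39 against 0.25 for all genes tested. In MDR_H minus BDL_H, 5 of the 8 were lower and 0 were called, with a median of -0.13 against 0.20. Apoc1 rose in MDR_H minus BDL_H by 0.84 (SE 0.18, adjusted p = 0.0250) and Lipc, hepatic lipase, by 0.90 (SE 0.21, adjusted p = 0.0323). These were 2 of the 14, and 0 of the 14 fell, against 7.36% and 0.935% of all genes. In MDR minus BDL, Apoc1 lost its call without BDL replicate 2 or 3 or any 1 MDR library, and Apoc2 without BDL replicate 2 or MDR replicate 2 or 3. In the other comparison Apoc1 lost it without any 1 BDL_H library or MDR_H replicate 1 or 3, under median-of-ratios scaling and with no filter on low values (adjusted p up to 0.176), and Lipc without BDL_H replicate 2, MDR replicate 3 or any 1 MDR_H library.

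Markers of other cell types moved with the same comparison. In MDR minus BDL, 10 of 12 stellate cell and fibroblast markers, 6 of 9 cholangiocyte markers, 5 of 10 endothelial markers and 3 of 11 monocyte and recruited macrophage markers rose, where 15.1% of all genes did, and 0 of 12 hepatocyte markers rose while 1, Apoa1, fell. Chil3, a chitinase-like gene of the monocyte list, fell by 2.33 (SE 0.40, adjusted p = 0.00524), and Prtn3, the proteinase 3 gene of the neutrophil list, by 3.36 (SE 0.16, adjusted p = 2.71e-06). Over the omission of single libraries the counts that rose ran from 7 to 10 for stellate cell, 3 to 6 for cholangiocyte, 1 to 8 for endothelial and 0 to 5 for monocyte markers. The cholangiocyte count was lowest without MDR replicate 2. The endothelial count was 2 without BDL replicate 1, 1 without BDL replicate 2, MDR replicate 2 or MDR replicate 3, and 8 without BDL replicate 3. The monocyte count was 1 without BDL replicate 1 or 2, 0 without MDR replicate 2 or 3 and 5 without BDL_H replicate 2 or MDR replicate 1. In MDR_H minus BDL_H, where 7.36% of all genes rose, the counts were 7 of 12, 3 of 9, 0 of 10 and 0 of 11, and Chil3, Prtn3 and Retnlg fell. Over the omission of single libraries the stellate count there ran from 2 (without MDR_H replicate 2) to 8 and the cholangiocyte count from 0 (without BDL_H replicate 2 or MDR_H replicate 2) to 4, and Chil3 lost its call without BDL_H replicate 1 or 3 or any MDR_H library and Retnlg without MDR_H replicate 2. By gene, 7 of the 12 hepatocyte markers were higher and 5 lower in MDR minus BDL, with a median difference of 0.03 against 0.25 for all genes. In MDR_H minus BDL_H, 7 were higher and 5 lower as well, with a median of 0.04 against 0.20. The summed level of the 12 hepatocyte markers was 36081 to 54387 FPKM in MDR_H and 40864 to 46706 FPKM in MDR libraries, and 50286 to 62218 FPKM in BDL_H and 53253 to 58811 FPKM in BDL libraries. That of the stellate cell and fibroblast markers was 345.5 to 478.5 FPKM in MDR_H and 283.9 to 561.1 FPKM in MDR libraries, and 146.5 to 249.3 FPKM in BDL_H and 73.0 to 145.7 FPKM in BDL libraries. The part of cell composition in the Saa differences was not tested. Over all genes, 1630 rose and 116 fell in MDR minus BDL as deposited, 671 and 381 under median-of-ratios scaling, and 548 and 393 after quantile normalization. Between MDR_H and BDL_H, 795 rose and 101 fell as deposited, against 340 and 292, and 380 and 339. Both scalings moved the median of all genes to near 0, and the Saa1 difference in MDR minus BDL was then -3.52 and -3.28.

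None of the 5 tested genes on either side of the cluster was called in either comparison of the models. Saal1, which ends short of Saa3, averaged 1.13 ± 0.16 FPKM in MDR_H and 1.37 ± 0.27 FPKM in MDR libraries, and 1.26 ± 0.10 FPKM in BDL_H and 1.18 ± 0.12 FPKM in BDL libraries (SD, n = 3 each). Its difference was 0.12 ± 0.12 (SE) in MDR minus BDL, with a limma adjusted p of 0.464. Ldha, a lactate dehydrogenase gene beyond Saa2, averaged 139.4 ± 2.3 FPKM in MDR_H and 131.8 ± 7.8 FPKM in MDR libraries, and 170.6 ± 83.4 FPKM in BDL_H and 147.4 ± 10.2 FPKM in BDL libraries. Its difference in MDR minus BDL was -0.16 ± 0.24 (adjusted p = 0.649). Hps5, Gtf2h1 and Tsg101, the other tested neighbours, had differences of 0.36 ± 0.14, -0.03 ± 0.15 and 0.05 ± 0.13 there. Otog, Kcnc1 and Sergef were below the level tested.

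**Figure D5:**
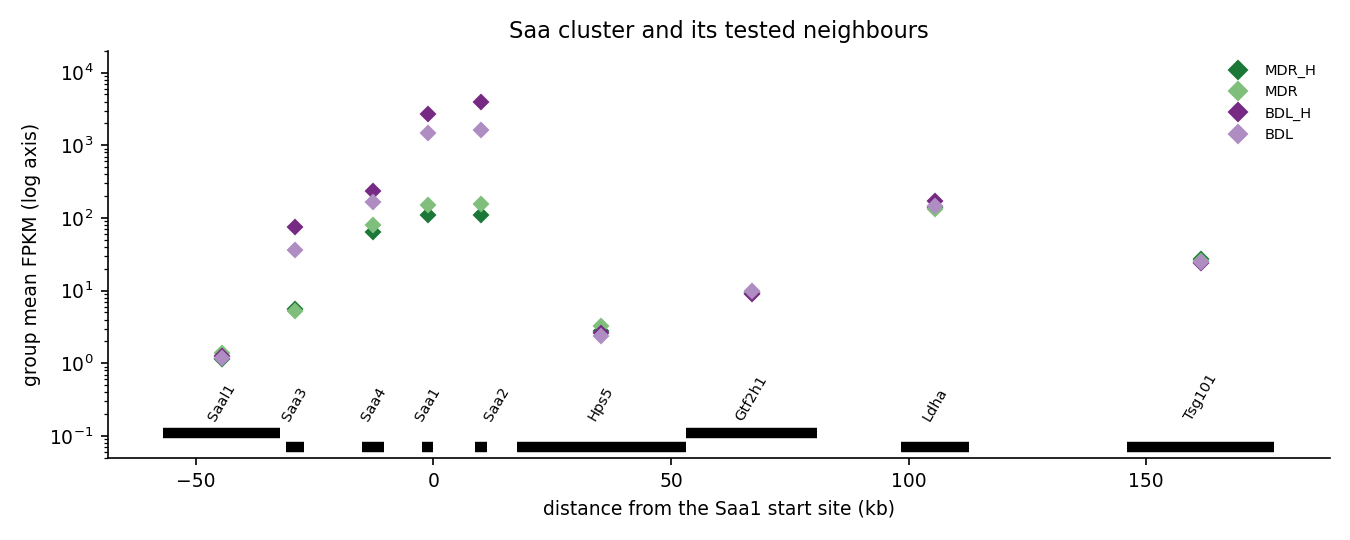
Group mean FPKM (log axis) of the Saa genes and their tested neighbours, placed by distance in kb from the Saa1 start site on GRCm38; black bars show the extent of each gene. The group means of Saal1, Gtf2h1 and Tsg101 nearly coincide, while those of the 4 Saa genes are higher in BDL_H and BDL than in MDR_H and MDR.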

How the data were processed

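Per the labels' protocols, libraries for sequencing were made from polyA RNA of liver (TRIzol, VAHTS Universal V6 kit). HISAT2 2.0.5 and featureCounts 1.5.0-p3, with DESeq2 1.20.0, CASAVA 1.8 and fastp, appear beside the build GRCm38 (mm10) in the submitters' processing notes. The sources used here do not give the order of these tools, the annotation or the use of strand in counting. The authors deposited 1 table of FPKM values for 16970 genes in 12 libraries, with groups taken from the sample titles. MDR was taken as the Abcb4-/- group that the series description names, and H as HDCA.

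FPKM is not a count, so limma 3.58.1 (R 4.3.3) with trend was fitted to log2(FPKM + 1) over the 4 groups, with 8 residual degrees of freedom, for the 10805 genes that reached an FPKM of 1 in 3 or more libraries. Differences on this scale understate the change of low genes. Tests were two-sided, adjusted by Benjamini-Hochberg over all genes tested, and called at an adjusted p under 0.05. The comparisons share one estimate of the spread. Reads were recovered from the steps of the FPKM values; 16968 of 16970 genes (99.99%) gave whole reads within 0.02 of a read, and limma-voom was run on them as an alternative. The lowest chi-square per gene between libraries of a group was 32.4, so none was counted as a duplicate.

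Whether the replicates are separate animals is not stated. Ddx3y was at 10.5 FPKM in MDR replicate 1 and at 0 in MDR replicates 2 and 3, so replicate 1 is not from their animal or animals. For the other libraries this is not known, and p-values then cover only the spread between libraries, which may be technical. Same-numbered libraries deviated together in MDR_H and MDR (r = 0.438, 0.312 and 0.548). The numbers were therefore read as pairs there, from the values alone, for the counts of pairs given above. In the other comparisons at least 1 same-numbered pair had a negative r, from -0.430 to -0.034, and no pairs were counted. The fit reported used no pairs in any comparison. The replicate block, an alternative only, used the numbers as blocks in every comparison.

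The members and the 14 gene lists were chosen with earlier results of these data known. Named genes are the members, up to 4 tested members of each list with the smallest p per comparison, the 5 genes most like each member, passing over predicted genes and immunoglobulin segments, and the tested neighbours of the cluster. Marco's and Stat3's values, the cell markers named and the leave-out values singled out were chosen after seeing them. Promoters came from RefSeq (GRCm38.p6), with 4 of 4 members matched, and gene positions and transcripts from GENCODE; identities were computed with Biopython 1.88.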

Additional observations from a re-analysis of the deposited data

How the results depend on the processing

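Over 20 alternatives (a pseudocount of 0.1, no filter on low values, median-of-ratios scaling, quantile normalization, only the 6 libraries compared, limma-voom on recovered reads, the replicate block, leaving out BDL replicate 1 and BDL_H replicate 2 together, and leaving out each library in turn), the Saa differences between the models kept their sign. Leaving out single libraries gave -0.43 to 1.43 for Saa1 and -0.51 to 1.86 for Saa2 in BDL_H minus BDL, -5.12 to -3.26 and -5.59 to -3.22 in MDR_H minus BDL_H, and -1.91 to -0.049 and -2.33 to 0.044 for the HDCA effect in MDR minus that in BDL; the extremes were without BDL_H replicate 1 and 2, the cause was not tested, and other Saa values moved by less than 1 residual SD. The genes called in MDR minus BDL, 1746 in the fit reported, numbered 1052 under median-of-ratios scaling, 941 after quantile normalization, 729 with only the 6 libraries compared (fewer samples) and 489 to 2346 without single libraries. In MDR_H minus BDL_H, 896 became 542 with only the 6 libraries, 589 with the replicate block and 167 to 1550 without single libraries. The other positive acute phase genes that fell numbered 8 to 21 without single libraries in MDR minus BDL. In MDR_H minus BDL_H, 11 became 5 without the filter (more genes tested), 7 under median-of-ratios scaling, 7 with only the 6 libraries, 7 with the replicate block and 0 to 13 without single libraries. The HDCA comparisons and their difference had 0 genes called in all of these, the paired fit included; for the difference, 200 genes had an unadjusted p under 0.05 in limma and 227 in limma-voom. With 3 libraries a group and this spread, a change of Saa1 or Saa2 of the size of their SE was not detectable.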
